A study of Rattus norvegicus with 5 samples.

Results

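The metalloproteinases, ADAMs, ADAMTSs and their TIMP inhibitors were examined in spinal cord tissue of Sprague Dawley rats, the lumbar dorsal horn at levels L4 to L6. Members were the rows of the deposited count table whose gene name begins with Mmp, Adam or Adamts followed by a number, or with Timp1 to Timp4. They were 58 of the 17321 genes in the table, namely 21 MMP, 20 ADAM, 13 ADAMTS and 4 TIMP genes. Family genes with no row under such a name, Adam8, Adam12, Adam22 and Adamts13 among them, were not examined. Tissue was taken on day 9 after CCI surgery (3 libraries) or SHAM surgery (2 libraries). The letters CCI commonly stand for chronic constriction injury, in which loose ties around a peripheral nerve produce lasting pain behaviour, and a SHAM animal has surgery with no nerve injury. The animals' age and sex, and whether a library holds 1 animal or a pool, are not given in the labels used here, so the p-values measure only the spread between these libraries, which may be technical. The series concerns the receptor GPR160 in neuropathic pain, and the question asked here was which of these protease and inhibitor genes differed between CCI and SHAM.

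Matrix metalloproteinases (MMPs) are zinc-dependent enzymes that cut collagens and other proteins of the extracellular matrix, either after secretion or from the cell surface. ADAMs are membrane proteins of which some release the outer parts of receptors and cytokines (shedding) and others have lost the protease function and act in adhesion. ADAMTSs are secreted relatives that cut proteoglycans and process procollagen, and TIMPs are small secreted inhibitors that block the active site of MMPs and, to differing degrees, of ADAMs and ADAMTSs. In the nervous system these proteins act in matrix turnover around synapses, at the blood barrier and in the shedding of signals between neurons and glia.

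The libraries held between 20053353 and 23673198 estimated counts, of which the members took 0.151% to 0.168%. CCI 3 stood apart in its share of counts in the 28S ribosomal row Rn28s, 15.2% against 1.91% to 2.39% in the others. Summed levels of marker lists, on the deposited per-length scale (TPM scaled by the authors), differed between libraries. Schwann cell markers (8 genes) summed to 30.0, 168 and 362 in CCI 1 to CCI 3 and to 25.9 and 38.3 in SHAM 1 and SHAM 2, and fibroblast markers (10 genes) to 31.2, 249 and 219 in CCI and 33.4 and 47.6 in SHAM. The peripheral and fibroblast signal was thus high in CCI 2 and CCI 3 and not in CCI 1, with no gene of either list at 0 in both SHAM libraries. Microglial markers (12 genes) summed to between 1430 and 1688 in CCI and between 459.5 and 539 in SHAM, without overlap, and 9 of the 12 were called higher. Astrocyte markers (7 genes) ran from 3652 to 4553 in CCI and from 2889 to 2904 in SHAM, but only Gfap, at 1655 to 2389 in CCI and 915 and 975 in SHAM, was called higher, and 3 of the 7 had negative log2 fold changes. Oligodendrocyte markers (6 genes) ran from 14045 to 16877 in CCI and from 19521 to 19719 in SHAM. All 6 were below SHAM in every CCI library, none was called, and their median was -0.36 on the log2 scale. Neuron markers (7 genes, excitatory and inhibitory) were present in every library. Motor neuron markers, of the ventral horn, were detected too (5 genes, 63.2 to 209 in CCI and 235 to 314 in SHAM) and 3 of the 5 were called lower. Border macrophage markers (4 genes) summed to 7.93, 13.9 and 18.2 in CCI 1 to CCI 3 and to 9.90 and 10.5 in SHAM. Endothelial and mural markers (6 genes) summed to 302, 374 and 295 in CCI and 324 and 353 in SHAM. Lymphocyte markers (4 genes, 1 of them tested) summed to 3.56, 11.9 and 5.66 in CCI and 3.59 and 2.83 in SHAM. In bulk tissue, more cells of a type and more RNA per cell cannot be told apart.

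Of the 58 members, 42 had 10 or more counts in at least 2 libraries and were tested. Calls required both 1.5-fold or more and an adjusted p no higher than 0.05 in edgeR's quasi-likelihood test, with adjustment over all 13511 tested genes. Timp1 and Mmp19 were called higher in CCI and no member was called lower. Over all tested genes 2.84% were called (2.58% higher and 0.259% lower), so 2 of 42 members is a share near the background. Without a low-count filter, where 55 members could be fitted, the same 2 were called. Of the tested members, 14 had every CCI library above both SHAM libraries in CPM (counts scaled to the size of the library), against 18.6% of all tested genes, and 6 had every CCI library below, against 18% of all tested genes. Groups were thus without overlap in 20 of 42 members, against 36.6% of all tested genes. The tested members centred at a log2 fold change (CCI against SHAM) of 0.15 by the median, beside 0.01 for all tested genes. Of the members 29 were above 0 and 13 below, where 52% of all tested genes were above 0. An unadjusted p under 0.05 was reached by 15 members, against 15.9% of all tested genes. Of the 15, 12 were higher in CCI (9.64% of all tested genes) and 3 lower (6.31%). Values below are listed in the order CCI 1, CCI 2, CCI 3, then SHAM 1, SHAM 2.

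**Figure D1:**
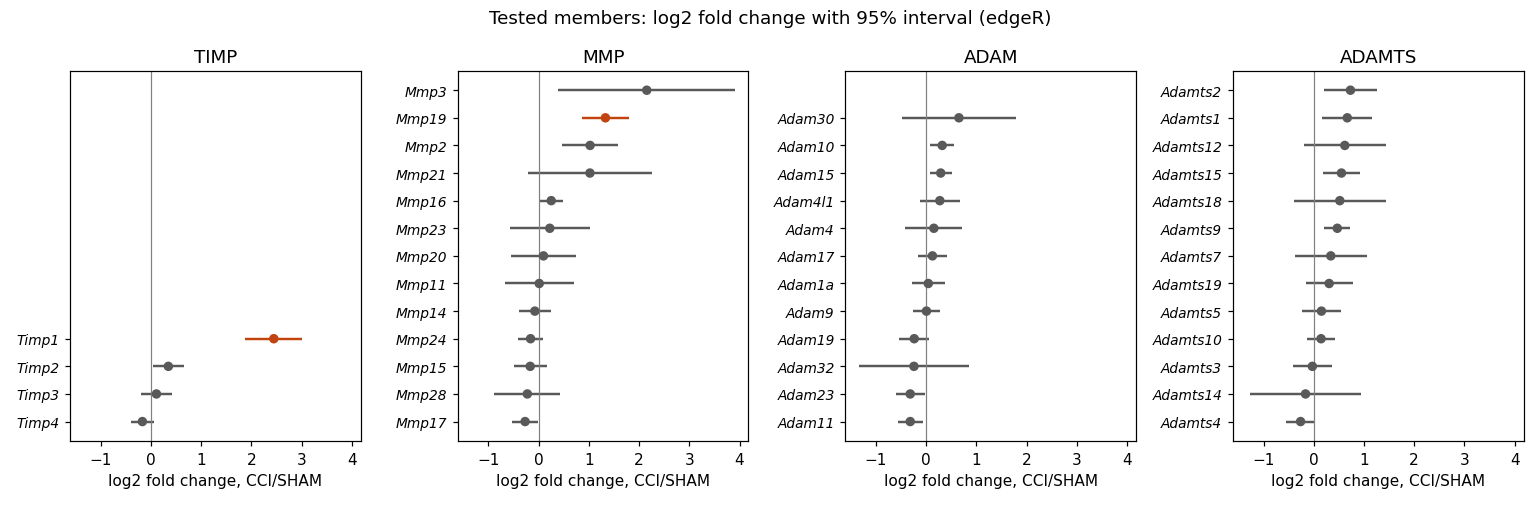
Log2 fold change of CCI against SHAM (x axis) for the 42 tested members in 4 panels by class, with 95% intervals from edgeR; red marks the called genes. Timp1 (2.44) and Mmp19 (1.33) are the only called genes, Mmp3 has the widest interval (0.39 to 3.91), and every ADAM and ADAMTS estimate lies within 1 unit of 0.

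The 4 TIMP genes were all tested, and 1 of them rose. Timp2, a broad MMP inhibitor that also takes part in the activation of MMP-2 at the cell surface, was the highest of the 4 in every library on the deposited per-length scale, followed by Timp3, which binds the matrix and inhibits several ADAMs and ADAMTSs. Timp1, an inducible inhibitor, was the lowest of the 4 in SHAM, at 7.40 and 8.96, and stood at 32.5, 52.0 and 51.4 in CCI 1 to CCI 3. By this measure it ranked 18 of 58 members in both SHAM libraries and 7, 4 and 5 in the CCI libraries. Its share of the summed TIMP level was 3.69% and 4.07% in SHAM and 13%, 18.0% and 16.6% in CCI.

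Timp1 rose in CCI. Its level was 14.4, 22.2 and 22.7 CPM in CCI 1 to CCI 3 and 3.23 and 4.05 CPM in SHAM 1 and SHAM 2, from 312, 558 and 429 counts and 71 and 81 counts. The groups did not overlap, and CCI 1 was the lowest of the CCI libraries. The means were 19.8 ± 4.6 CPM (SD, n = 3) and 3.64 ± 0.58 CPM (SD, n = 2), a difference of 2.44 on the log2 scale (SE 0.25) or 5.44-fold. The adjusted p was 0.0017 (edgeR), and Timp1 ranked 60 of the 13511 tested genes by p. The fibroblast sum was 31.2, 249 and 219 in CCI 1 to CCI 3 and 33.4 and 47.6 in SHAM. The microglial sum was 1430 to 1688 in CCI and 459.5 and 539 in SHAM. The astrocyte sum was 3652 to 4553 in CCI and 2889 to 2904 in SHAM. The part of any of these lists in the Timp1 difference was not tested. Permuting the libraries exactly (two-sided, on log2 CPM) gave p = 0.1 for Timp1 and for Mmp19, the smallest value that the 10 splits of 3 against 2 libraries allow. Without SHAM 1 the Timp1 change was 2.29 and was no longer called (adjusted p = 0.0645, edgeR), while it was called with any other library left out.

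**Figure D2:**
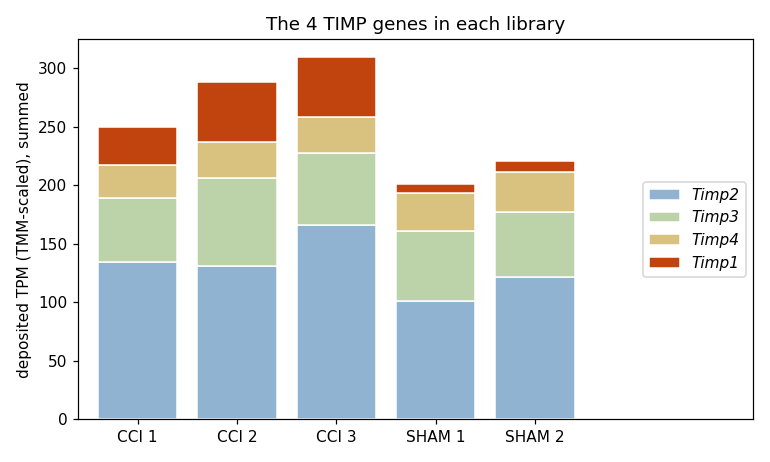
Stacked bars of the deposited per-length level (TPM scaled by the authors, y axis) of the 4 TIMP genes in each library (x axis). The red top segment is Timp1, 3.69% and 4.07% of the bar in SHAM and 13% to 18.0% in CCI; Timp2 is the largest segment in all 5 libraries.

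None of the other TIMP genes was called. Timp2 was at 166, 158 and 202 CPM in CCI against 124 and 151 CPM in SHAM. The difference of 0.35 on the log2 scale (SE 0.14) had an adjusted p of 0.265 (edgeR). Every CCI library was above both SHAM libraries, by a margin smaller than the spread between the SHAM libraries. Timp3 overlapped between the groups (72.3, 99.4 and 81.4 CPM against 80.5 and 76.2 CPM; log2 fold change 0.11, 95% interval -0.21 to 0.42), and its small difference turned to -0.03 without CCI 2. Timp4 was 36.7 to 38.3 CPM in CCI against 41.0 and 43.4 CPM in SHAM (-0.17, 95% interval -0.40 to 0.06), so it was slightly lower in every CCI library without passing the test. The summed TIMP level on the per-length scale was 283 ± 30 (SD, n = 3) in CCI and 211 ± 14 (SD, n = 2) in SHAM. With Timp1 taken out it was 218, 237 and 258 in CCI and 193 and 211 in SHAM, so the groups still did not overlap but lay closer together.

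Timp1, Timp3 and Timp4 share a genomic setting. In the RefSeq annotation of the GRCr8 assembly they lie inside Syn1, Syn3 and Syn2, genes of synapsins, which are proteins of synaptic vesicles. The sources used here do not say whether counting used strand, so synapsin reads from where the genes overlap cannot be told apart from TIMP reads. Estimated counts were whole numbers for Timp1, Timp3, Timp4 and Syn3, and fractional for Syn1 and Syn2. Syn1, the host of Timp1, was at 105, 77.1 and 169 CPM in CCI against 87.4 and 117 CPM in SHAM, overlapping between groups (log2 fold change 0.19, SE 0.36, adjusted p = 0.828, edgeR). Timp2 overlaps Cep295nl, which overlapped between groups (0.69, SE 0.46). Syn2 and Syn3 had log2 fold changes of 0.18 and -0.06 and also overlapped. Among the CCI libraries Timp1 was lowest in CCI 1 and similar in CCI 2 and CCI 3, and Syn1 was lowest in CCI 2. Both were highest in CCI 3. The part of Syn1 reads in the Timp1 difference was not tested.

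The bases upstream of Timp1 and of the stromelysin gene Mmp3 are shown because these genes had the highest log2 fold changes among the 42 tested members, and because promoters of this family are known to carry sites for AP-1, a dimer of Fos and Jun proteins. Each is the 250 bases before the start site in RefSeq (GRCr8, a later build than that of the files), printed 5′ to 3′ on the gene's strand. The window of Timp1 is chrX:3771123-3771372 on the minus strand, with the match to TGAGTAA in capitals. The window of Mmp3 is chr8:12925031-12925280 on the plus strand, with the match to TGANTCA in capitals.
Timp1: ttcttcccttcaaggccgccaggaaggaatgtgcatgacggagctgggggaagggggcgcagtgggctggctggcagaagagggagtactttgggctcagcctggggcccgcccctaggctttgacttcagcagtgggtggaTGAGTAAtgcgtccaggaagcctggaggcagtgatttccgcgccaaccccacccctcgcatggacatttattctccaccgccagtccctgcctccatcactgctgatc
Mmp3: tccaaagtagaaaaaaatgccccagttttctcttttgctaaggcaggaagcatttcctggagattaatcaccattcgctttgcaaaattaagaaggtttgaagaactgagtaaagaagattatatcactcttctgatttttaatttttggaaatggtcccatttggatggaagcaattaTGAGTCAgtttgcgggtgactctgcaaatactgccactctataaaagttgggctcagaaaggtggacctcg
The match lay 108 to 102 bases before the start in Timp1 and 71 to 65 bases before it in Mmp3. Mmp3 also held TGAGTAA at 144 to 138 and TATAAA at 32 to 27 bases before its start. Both strands were searched over 33469 windows of this length. TGANTCA, the consensus AP-1 site, was in 6.34% of all windows, TGAGTAA, a variant of it, in 2.38%, the TATA box TATAAA in 12.9% and GGGCGG, the core of the Sp1 site, in 30.5%. Of the 58 members 39 had a window, Mmp19 not among them. TGANTCA was in 8 of the 39, of which 7 belong to the MMP cluster described next, and TATAAA was in 15, of which 8 belong to that cluster. GGGCGG was in 18 of the 39, Timp1 among them, and in none of that cluster. The window of Timp1 held no match to TGANTCA. Among the 39, TGAGTAA was in Timp1 and Mmp3 only, the genes shown for their fold changes, so this is a description. A match is a string of letters and not a measured site.

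Of the 21 MMP genes 13 were tested, and detection differed by genomic position. On the GRCr8 annotation 9 MMP members follow each other on chromosome 8, from Mmp13 to Mmp7, among 10 protein-coding genes. Only 2 of these 9, Mmp3 and Mmp20, had enough counts to be tested, whereas 11 of the 12 MMP members elsewhere did. The collagenases Mmp1, Mmp8 and Mmp13, the matrilysin Mmp7, the stromelysin Mmp10 and Mmp27 had 0 to 4 counts each over all 5 libraries. Mmp12, the macrophage elastase, had 7 counts in CCI 3 and 0 in the other 4 libraries, too few to compare at this depth. The membrane-type genes Mmp14, Mmp15, Mmp16, Mmp17 and Mmp24, whose products stay on the cell surface, were the most abundant MMP transcripts, with mean per-length levels over all libraries of 14.1, 19.8, 20.2, 9.56 and 19.3.

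Mmp19, a secreted metalloproteinase that cuts basement membrane proteins, rose in CCI. It was at 7.50, 8.26 and 9.54 CPM in CCI 1 to CCI 3 and at 3.59 and 3.10 CPM in SHAM, from 162, 208 and 180 counts and 79 and 62 counts. The groups did not overlap, and the spread among the CCI libraries was small beside the difference. The means were 8.43 ± 1.03 CPM (SD, n = 3) and 3.34 ± 0.349 CPM (SD, n = 2), a difference of 1.33 on the log2 scale (SE 0.21) or 2.52-fold (adjusted p = 0.0104, edgeR). The call was lost without SHAM 1 (1.44, adjusted p = 0.129, edgeR) and without SHAM 2 (1.22, adjusted p = 0.149, edgeR), where the lone SHAM library is assumed to vary like the CCI libraries. On the per-length scale Mmp19 stood at 4.90 to 6.31 in CCI, below the membrane-type genes.

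Of the gelatinases, which cut denatured collagen and basement membrane collagen, Mmp2 had enough counts to be tested and Mmp9 did not. Mmp2 was at 11.8, 21.0 and 18.3 CPM in CCI against 8.04 and 8.74 CPM in SHAM. All 3 CCI libraries were above SHAM, with CCI 1 the nearest to it, and the log2 fold change of 1.02 (SE 0.24, 95% interval 0.46 to 1.59) did not pass the test (adjusted p = 0.0759, edgeR). It passed with the likelihood ratio test (adjusted p = 0.00538, edgeR), with DESeq2 (adjusted p = 0.00573) and without CCI 1 (1.23, adjusted p = 0.00294, edgeR). Mmp2 is also a gene of fibroblasts, and the fibroblast sum was 31.2, 249 and 219 in the same CCI libraries; its part in the Mmp2 difference was not tested. Mmp9, associated with neutrophils and with injured nervous tissue, lay just outside the filter with 4, 13 and 6 counts in CCI and 1 and 1 in SHAM. Its pooled rate in CCI was 7.36 times that in SHAM, with an exact 95% interval of 1.82 to 64.4 that covers counting error only; fitted without a filter, its adjusted p was 0.191 (edgeR). The neutrophil markers, 6 genes, were all below the filter, with sums of 1.97 to 4.57 in CCI and 0.949 to 2.45 in SHAM on the per-length scale; their part in the Mmp9 counts was not tested. Just inside the filter were Adam32 (6 to 12 counts per library) and Mmp21 (6 to 18).

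Mmp3 (stromelysin 1), which cuts many matrix proteins and activates other MMPs, varied most among the CCI libraries. It was at 4.12, 0.715 and 2.28 CPM in CCI 1 to CCI 3 and at 0.455 and 0.600 CPM in SHAM, from 89, 18 and 43 counts and 10 and 12 counts. CCI 2 lay close to SHAM and CCI 1 far above it, an order unlike that of Mmp2. The log2 fold change of 2.15 (SE 0.75) did not pass (adjusted p = 0.218, edgeR), but without CCI 2 it was 2.60 and called (adjusted p = 0.00441, edgeR). Mmp10 had 2 counts in all, Mmp11 overlapped (0.01, 95% interval -0.68 to 0.70; its gene overlaps Chchd10) and Mmp20, the enamel metalloproteinase, overlapped between groups (0.10).

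No membrane-type MMP gene was called. Mmp16 was at 62.6, 57.9 and 62.3 CPM in CCI against 53.1 and 49.2 CPM in SHAM (log2 fold change 0.25, SE 0.10, adjusted p = 0.274, edgeR); its estimated counts are fractional, which means that reads could be shared with another row. Mmp17 lay lower in every CCI library (23.2 to 26.4 CPM against 29.5 and 30.6 CPM; -0.27, adjusted p = 0.286, edgeR), and so did Mmp24 (58.6 to 67.5 CPM against 67.9 and 74.3 CPM; -0.16), which overlaps the gene Mmp24os. Mmp14, the main cell-surface activator of MMP-2, overlapped between groups (22.1 to 29.0 CPM against 27.6 and 28.0 CPM; -0.07, 95% interval -0.39 to 0.24; 0.03 without CCI 3), and so did Mmp15 (-0.17). None of the 5 was called in any alternative that was run. The summed MMP level on the per-length scale was 103 ± 1.55 (SD, n = 3) in CCI and 96.4 ± 1.49 (SD, n = 2) in SHAM, without overlap. The ratio of summed TIMP to summed MMP levels was 2.42, 2.83 and 2.95 in CCI and 2.06 and 2.31 in SHAM. It was higher in each CCI library than in either SHAM library, with CCI 1 closest to SHAM. That separation rests on Timp1. With Timp1 taken out, the TIMP sum was 218 in CCI 1 and 211 in SHAM 2, beside MMP sums of 103 and 95.4. The ratio of CCI 1 is then below that of SHAM 2, so the groups overlap.

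**Figure D3:**
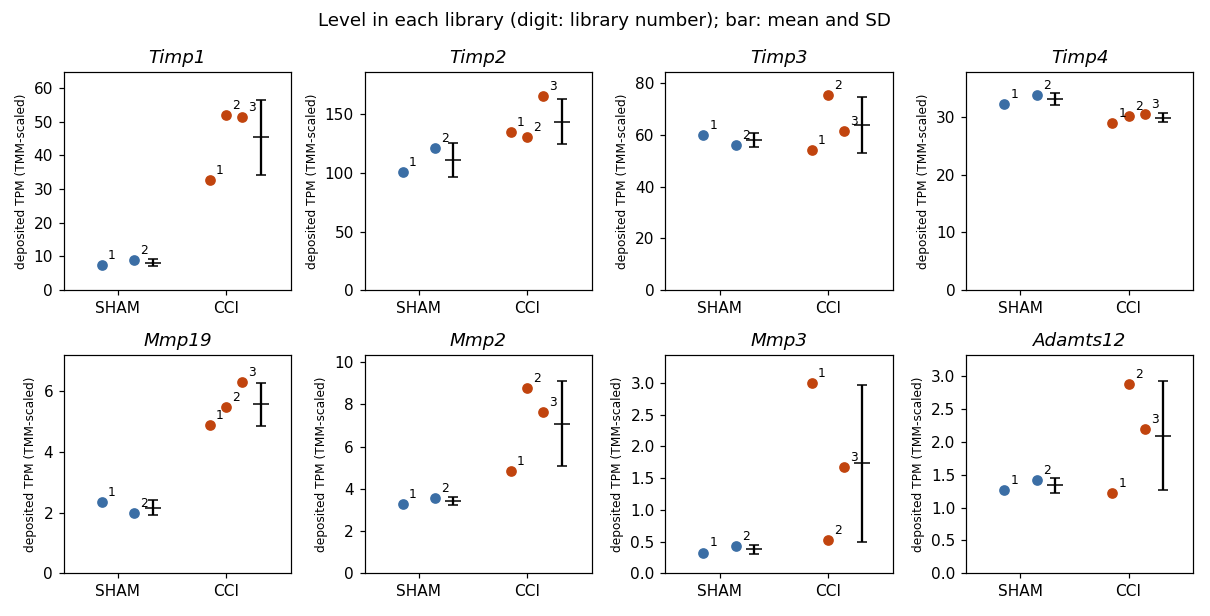
Deposited per-length level (TPM scaled by the authors, y axes from 0) of 8 members in SHAM (blue) and CCI (red), a point per library with its number, and black bars for mean and SD. The groups separate in Timp1, Mmp19, Timp2, Mmp2, Mmp3 and, with CCI lower, Timp4, and they overlap in Timp3 and Adamts12. Only Timp1 and Mmp19 were called. Mmp2 and Adamts12 are highest in CCI 2 and CCI 3, and Mmp3 is highest in CCI 1.

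No ADAM gene was called. Of the 20, 12 were tested, and the 8 that were not (Adam2, Adam3a, Adam5, Adam6, Adam7, Adam26a, Adam28 and Adam34) had 0 to 13 counts over all 5 libraries; most of these are known from testis or epididymis. Among the sheddases, Adam10, which cuts Notch, N-cadherin and the amyloid precursor, was at 148, 154 and 173 CPM in CCI against 131 and 123 CPM in SHAM. Adam15 was at 71.5, 70.4 and 69.3 CPM in CCI against 58.4 and 56.8 CPM in SHAM. Both were higher in every CCI library, by small amounts, with log2 fold changes of 0.32 (95% interval 0.07 to 0.56, adjusted p = 0.187, edgeR) and 0.29 (0.07 to 0.51, adjusted p = 0.180, edgeR). Adam17, the enzyme that releases tumour necrosis factor, overlapped between groups (60.3 to 75.8 CPM against 56.9 and 65.7 CPM; 0.12, 95% interval -0.17 to 0.41). Adam9 was at 0.01 (95% interval -0.26 to 0.27), and Adam19 was at -0.24, with fractional counts.

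The adhesion genes Adam23 and Adam11 had lower levels in CCI without passing the test. Adam23, which is known in neurons as a receptor for LGI proteins and lacks protease function, was the most abundant ADAM transcript, at 114, 90.9 and 108 in CCI and 139 and 117 in SHAM on the per-length scale. In CPM it was 205 to 260 in CCI and 269 and 318 in SHAM, and the log2 difference was -0.32 (SE 0.13, adjusted p = 0.274, edgeR). Adam11, a related brain protein without protease function, was at 77.1, 64.7 and 66.8 CPM in CCI against 89.2 and 84.0 CPM in SHAM (-0.32, SE 0.11, adjusted p = 0.206, edgeR). For both, every CCI library was below both SHAM libraries. The 7 neuron markers had a median of -0.03 on the log2 scale, and their summed level was 1454 to 1585 in CCI and 1567 and 1724 in SHAM. The oligodendrocyte sum was also lower in CCI (14045 to 16877 against 19521 and 19719). The part of either list in the lower adhesion genes was not tested. Among the remaining tested ADAM genes, Adam30 was at 4.54, 4.69 and 12.04 CPM in CCI against 3.90 and 5.05 CPM in SHAM, so its mean rests on CCI 3. Adam1a overlapped between groups, Adam32 rests on 6 to 12 counts a library, and Adam4 and Adam4l1, which lie inside Cox16 on the GRCr8 annotation, have fractional counts and are uncertain, as is Adam30.

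No ADAMTS gene was called. Of the 13, all tested, 10 had a log2 fold change above 0, against 52% of all tested genes. In CPM 7 of the 13 overlapped between groups, where 8564 of all 13511 tested genes did. The proteoglycanases cut aggrecan, brevican and versican. Adamts9 was at 32.3, 35.8 and 36.5 CPM in CCI against 24.4 and 26.0 CPM in SHAM, without overlap and with little spread within groups. Its log2 fold change was 0.47 (SE 0.11, 95% interval 0.21 to 0.73), the third smallest p among the members (adjusted p = 0.0683, edgeR). Adamts1, which is known to be induced in injured tissue, was at 30.7, 24.2 and 19.0 CPM in CCI against 17.5 and 13.5 CPM in SHAM (0.67, SE 0.22, adjusted p = 0.184, edgeR); it was highest in CCI 1. Adamts15 was at 13.5, 16.6 and 18.0 CPM against 11.4 and 10.5 CPM (0.55, SE 0.16, adjusted p = 0.132, edgeR), with fractional counts. Without CCI 1 it was called (0.66, adjusted p = 0.0454, edgeR). Adamts4 was the most abundant ADAMTS transcript on the per-length scale (19.6 to 24.6 in CCI, 25.2 and 28.8 in SHAM). It was the only proteoglycanase lower in each CCI library (-0.26, SE 0.13, adjusted p = 0.369, edgeR), and its counts are fractional, so it is uncertain; the part of the lower oligodendrocyte sum was not tested. Adamts5, a major aggrecan-cutting enzyme of cartilage, overlapped between groups (0.15, 95% interval -0.23 to 0.54).

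Several ADAMTS genes were highest in CCI 2 and CCI 3. Adamts2, which removes the N-terminal propeptide of fibrillar procollagens, was at 8.75, 14.7 and 13.5 CPM in CCI against 7.59 and 7.24 CPM in SHAM. Its log2 fold change was 0.73 (SE 0.23, adjusted p = 0.161, edgeR), and 0.93 and called without CCI 1 (adjusted p = 0.0138, edgeR). Adamts12 was at 8.70, 20.4 and 15.5 CPM in CCI against 9.14 and 10.3 CPM in SHAM, so CCI 1 lay below both SHAM libraries. Without CCI 1 the Adamts12 change was 0.89 and called (adjusted p = 0.024, edgeR), against 0.62 (adjusted p = 0.432, edgeR) in all 5 libraries. Among the CCI libraries, CCI 1 had the lowest level in 20 of the 42 tested members, CCI 2 in 13 and CCI 3 in 9. In total 6 tested members were above both SHAM libraries in CCI 2 and CCI 3 but not in CCI 1, namely Adamts7, Adamts10, Adamts12, Adamts18, Mmp23 and Timp3. Schwann cell, fibroblast and border macrophage sums were higher in the same 2 libraries (168 and 362, 249 and 219, and 13.9 and 18.2) than in CCI 1 (30.0, 31.2 and 7.93). Their part in these genes was not tested. How often CCI 1 was lowest, or only CCI 2 and CCI 3 were above SHAM, was not counted over all tested genes. Neither count is thus shown to be particular to the members. Adamts3 and Adamts14, the other procollagen proteinases, had log2 fold changes of -0.03 and -0.16 and overlapped, as did Adamts10 (0.15), while Adamts19 (0.31) lay above SHAM in each CCI library without passing the test. Without CCI 1 the number of members called was 6, where 766 of all 13462 genes tested were called, and without SHAM 1 it was 0, where 71 of 13453 were.

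**Figure D4:**
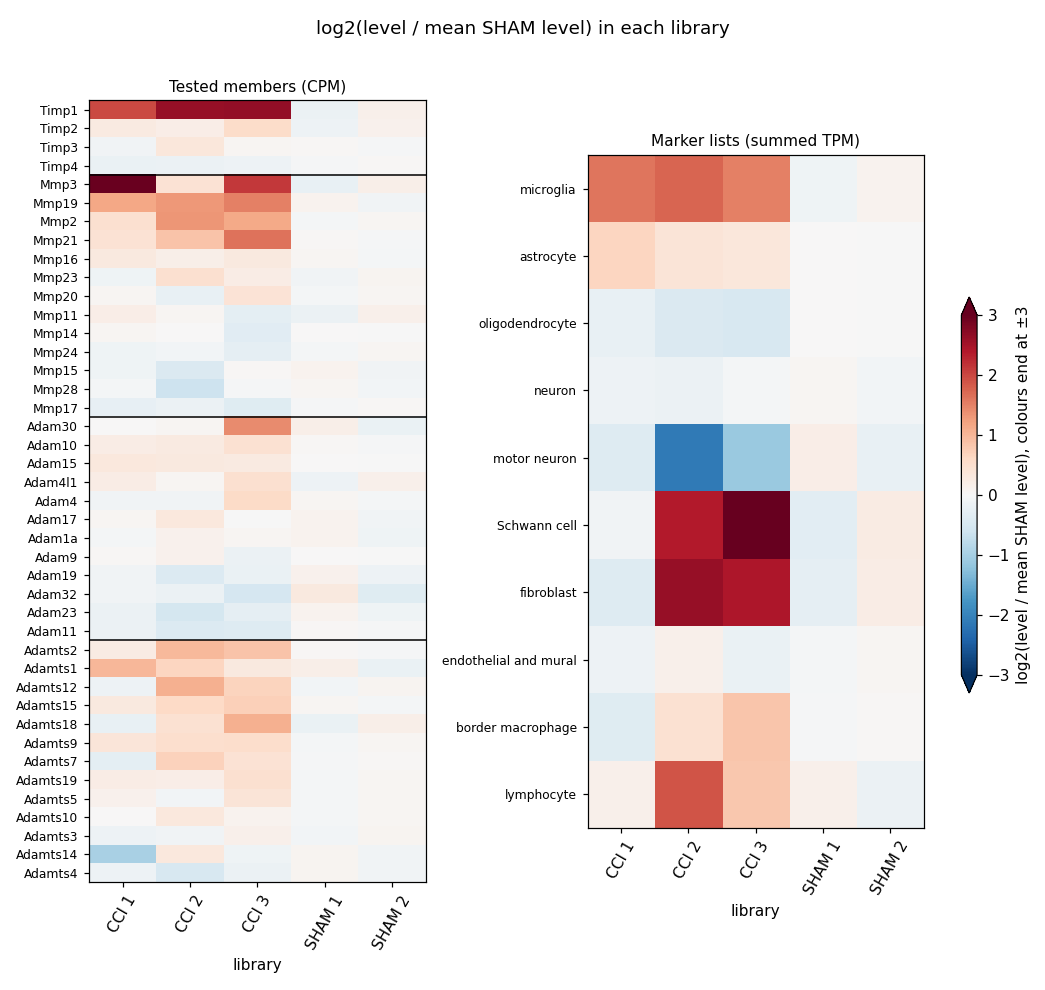
Each row is a tested member (left, CPM, grouped as TIMP, MMP, ADAM and ADAMTS) or a marker list (right, summed per-length level), each column a library, and colour the log2 ratio to the mean SHAM level. Timp1 and Mmp19 are red in all 3 CCI libraries, as are the microglia list and, in a paler shade, the astrocyte list. Adamts12 is red in CCI 2 and CCI 3 only, as are the Schwann cell, fibroblast and border macrophage lists. The part of any list in these genes was not tested.

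Partners and substrates of these enzymes were described from 3 lists. Of 22 tested partners and regulators, 1 rose and none fell, and their median was 0.14 on the log2 scale. The called gene was Rhbdf2, which encodes iRhom2, the protein that carries ADAM17 to the cell surface, at 5.28, 5.32 and 5.83 CPM in CCI against 2.18 and 1.85 CPM in SHAM (1.44, SE 0.24, 2.71-fold, adjusted p = 0.0131, edgeR). Its groups did not overlap and its CCI libraries were close to each other, but its counts are fractional. Its paralogue Rhbdf1 was at -0.28 and overlapped between groups. The call was lost without either SHAM library (adjusted p = 0.149 and 0.170, edgeR). Of the others, A2m, which encodes alpha-2-macroglobulin, a general trap for proteases, was at 152, 345 and 233 CPM in CCI against 83.2 and 89.2 CPM in SHAM, without overlap but spread widely within CCI (1.50, SE 0.36, adjusted p = 0.132, edgeR). Furin, a convertase that activates membrane-type MMPs and ADAMs, was 31.0 to 38.7 CPM in CCI against 22.9 and 26.6 CPM in SHAM (0.52, SE 0.14, adjusted p = 0.0898, edgeR). Reck, a membrane-anchored MMP inhibitor, overlapped (0.42). Of 14 matrix substrates none was called. Bcan, the brain proteoglycan brevican, passed the adjusted p but not the fold threshold (290 to 352 CPM in CCI, 453 and 502 CPM in SHAM; log2 fold change -0.54, SE 0.12, adjusted p = 0.0445, edgeR), with fractional counts. It was called without CCI 1 (-0.60, adjusted p = 0.0323, edgeR), while its adjusted p was 0.0692 without CCI 3, 0.417 without SHAM 1 and 0.185 without SHAM 2 (edgeR). The part of the lower oligodendrocyte sum in Bcan was not tested. Acan, encoding aggrecan, lay lower in every CCI library (-0.57, adjusted p = 0.156, edgeR) and Fn1, encoding fibronectin, higher (1.13, adjusted p = 0.295, edgeR). Vwf, encoding von Willebrand factor, was 112 to 166 CPM in CCI against 67.0 and 87.1 CPM in SHAM (0.88, adjusted p = 0.0578, edgeR). Its product is a blood plasma substrate of ADAMTS13, whose gene is not among the members. Vwf was called with the likelihood ratio test (adjusted p = 0.000688, edgeR), DESeq2 (adjusted p = 0.000261), no low-count filter (adjusted p = 0.0488, edgeR) and without CCI 1 (1.02, adjusted p = 0.00452, edgeR).

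The shed membrane proteins held most of the called changes among the lists: 6 of 18 tested genes rose and none fell, against 2.58% of all tested genes called higher, with a list median of 0.11. The list was chosen with earlier results of these data known, so its count is a description. The TNF receptors, which ADAM17 releases from the cell surface, both rose. Tnfrsf1a was at 23.5, 22.6 and 20.9 CPM in CCI against 10.5 and 10.8 CPM in SHAM (log2 fold change 1.07, SE 0.13, adjusted p = 0.00276, edgeR), and Tnfrsf1b at 11.4, 18.7 and 14.3 CPM and 4.77 and 5.15 CPM (1.58, SE 0.23, adjusted p = 0.00718, edgeR). Their ligand gene Tnf was under 1 CPM in every library and overlapped between groups (-0.27, SE 0.64). The interleukin 6 receptor gene Il6r rose by 1.26 on the log2 scale, the chemokine gene Cxcl16 by 1.65, the hyaluronan receptor gene Cd44 by 1.08 and the receptor kinase gene Axl, whose counts are fractional, by 0.86. In each of the 6 genes all CCI libraries were above both SHAM libraries. Without SHAM 1 only Cd44 of these 6 remained called, without SHAM 2 none did, and Axl was also lost without CCI 3. Several of these genes are expressed by microglia, whose marker sum was 1430 to 1688 in CCI and 459.5 and 539 in SHAM, and its part was not tested. The LGI genes, ligands of the adhesion ADAMs, were not called (Lgi1 -0.02, Lgi2 -0.09, Lgi3 -0.50, Lgi4 0.08).

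**Figure D5:**
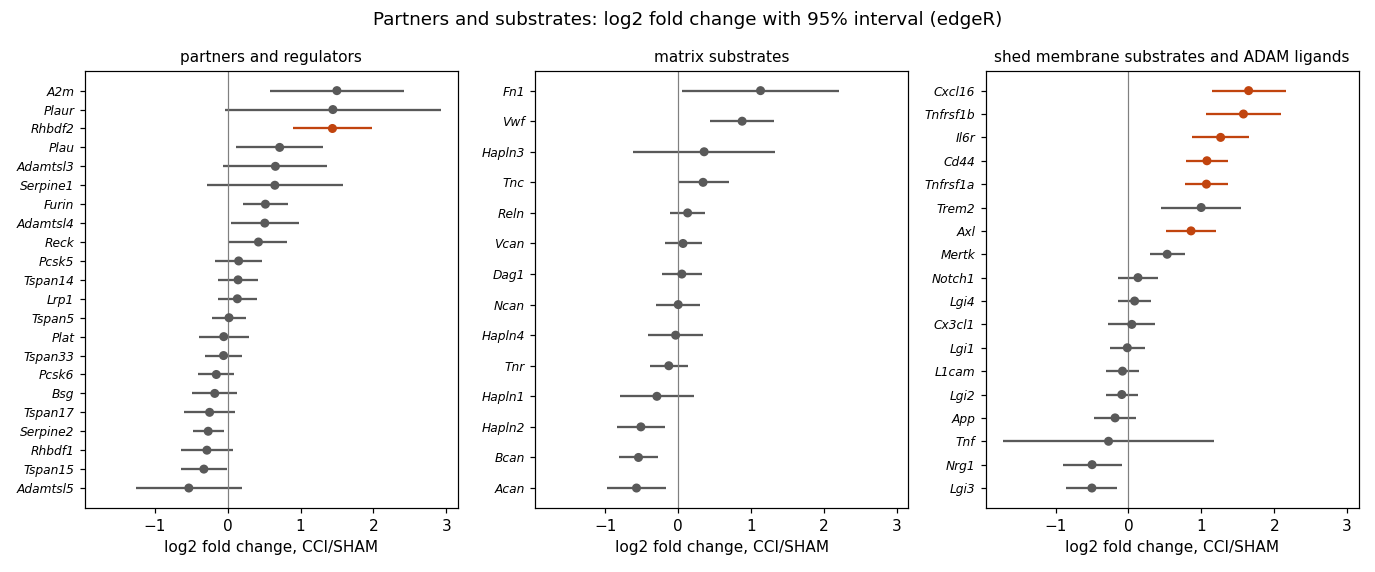
Log2 fold change of CCI against SHAM (x axis) with 95% intervals from edgeR for the tested genes of 3 lists, a panel each; red marks called genes. Rhbdf2 (1.44) is the only red gene among partners, none is red among matrix substrates, and 6 of 18 shed proteins and ligands are red, led by Cxcl16 (1.65).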

How the data were processed

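Per the submitters' processing notes, kallisto 0.44.0 and the build rn6 were used; the authors deposited estimated counts, 1 row per gene symbol. They also deposited a table named TPM, used here as a per-length signal because its column totals differ between libraries; the design text of the series names TMM scaling after kallisto. No source used here names the annotation or the strand setting. Groups came from the treatment label, and library numbers are only names, in accession order. The members, the lists and the rule for naming genes were chosen with earlier results of these data known.

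Estimated counts were rounded to whole numbers, and the 13511 genes with 10 or more counts in at least 2 libraries entered edgeR 4.0.16 (R 4.3.3; robust glmQLFit on TMM-scaled libraries, glmQLFTest, two-sided, 3 residual degrees of freedom) and Benjamini-Hochberg adjustment over all of them. The thresholds are those the series states. Each SE was obtained from the log2 fold change and the square root of its F statistic. Fractional estimated counts occur in 7 of 42 tested members and 20.5% of all tested genes. The rule named the TIMP genes, called members, the 4 most abundant and the 4 of smallest p in each other class, and called genes of each list or the 2 of smallest p; other genes were named after their values were seen. All 58 members matched the GRCr8 gene table by symbol, of which only names and neighbours were used; not every overlap with a neighbouring gene is reported here. Promoter windows are from RefSeq (GRCr8). Alternatives were DESeq2 1.42.0, the likelihood ratio test, RLE scaling, filterByExpr, no filter, no fold threshold, limma 3.58.1 on log2(TPM + 0.5) and log2(TPM + 0.1), and leaving out each library. The test was checked on simulated data. Figures were drawn with matplotlib 3.10.9.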

Additional observations from a re-analysis of the deposited data

How the results depend on the processing

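The number of members called was 2 with RLE scaling, with filterByExpr, without a low-count filter, without a fold threshold and with limma on log2(TPM + 0.5) or log2(TPM + 0.1), each time Timp1 and Mmp19. Both DESeq2 and the likelihood ratio test gave 3, adding Mmp2. With a library left out it ranged from 0 to 6: 6 without CCI 1 (adding Mmp2, Adamts2, Adamts12 and Adamts15), 3 without CCI 2 (adding Mmp3), 2 without CCI 3, 0 without SHAM 1 and 1 without SHAM 2, where Timp1 kept its call. Over all genes 384 were called, 646 with the likelihood ratio test, 614 with DESeq2, and 71 to 766 with a library left out. With 1 SHAM library left, its spread is assumed to be that of the CCI libraries. Of the 23 named members, those that changed sign were Adam9 (-0.000165 with DESeq2, -0.000365 with RLE scaling), and, with a library left out, Adam9 (-0.061 to 0.085), Timp3 (-0.026 to 0.21, negative without CCI 2) and Mmp14 (-0.15 to 0.032, positive without CCI 3). The cause of these changes was not tested. No paired analysis was possible because the labels give no replicate numbers that the groups share. With 3 against 2 libraries no exact test can go below p = 0.1, and members under 1 CPM, such as Mmp21, Adam32 and Adamts14, rest on 6 to 20 counts a library.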
